A study of Mus musculus with 12 samples.

Results

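The genes described here encode 10 proteins that start or carry out pyroptosis and necroptosis: Casp1, Casp4, Casp8, Nlrp3, Pycard, Gsdmd, Mlkl, Ripk1, Ripk3 and Zbp1. They were picked by symbol, with earlier results of these data known, as 10 of 24062 entries in an RNA sequencing table of mouse macrophages. All 10 were found. The cells were primary macrophages grown from bone marrow of C57Bl/6 mice, labelled wild type and passage 1. The labels give 4 groups of 3 libraries: no stimulation; C-178, a covalent small-molecule inhibitor of STING; CMA, a small-molecule agonist of STING; and C-178 together with CMA. Treatment lasted 2 h. The labels name neither the doses nor a vehicle in the unstimulated group, and do not say whether the replicates of a group were separate cultures or mice. The p-values therefore measure the spread between these libraries, which may be technical. Of the unstimulated columns, 2 carry the same heading, so those libraries are called 1, a and b.

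Pyroptosis is a lytic form of cell death. An inflammasome sensor such as NLRP3 recruits the adaptor ASC, which Pycard encodes, and ASC brings in caspase-1, while caspase-11, the product of Casp4 in the mouse, binds bacterial lipopolysaccharide in the cytosol by itself. Both caspases cut gasdermin D, the product of Gsdmd, whose freed N-terminal part forms pores in the plasma membrane. In necroptosis the kinase RIPK3 is engaged by RIPK1 or by the nucleic acid sensor ZBP1 and phosphorylates MLKL, which then breaks the membrane. Caspase-8 holds necroptosis in check by cutting RIPK1 and RIPK3. In macrophages, type I interferon made downstream of STING is known to raise transcripts of several of these proteins, so the design asks which of them responded to the agonist and whether the inhibitor held that response back.

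Levels below are normalised counts, in which the authors brought the libraries to a common scale. Changes are differences of log2(value + 1) with their SE from a limma fit over all 12 libraries, which understates the change of low genes, and a change was called at a Benjamini-Hochberg adjusted p under 0.05 over the 11440 genes that passed a filter on low values. All 10 genes passed it, and the fewest reads that any of them had in a library was 71. Recovered depth ranged from 13.91 to 17.45 M reads in the unstimulated libraries. It was 7.05 to 28.48 M in the C-178 group, 7.13 to 7.83 M in the CMA group, and 7.77 to 36.44 M where both compounds were given. Library 1 was the deepest by far in both groups with C-178. An exact permutation test of 3 against 3 libraries cannot give a p under 0.1. Of 10 macrophage markers, 9 were in the table and all 9 were above 100 normalised counts in every group. The extraction protocol in the labels names embryonic fibroblasts, unlike the cell type label: the 10 fibroblast markers summed to 679.5 to 718.4 without stimulation, 882.3 to 994.3 with C-178, 1033 to 1991 with CMA and 469.1 to 1032 with both compounds, with 1, 0, 1 and 1 of the 10 at 0, against 279772 or more for the macrophage markers in any library. In the same order of groups, 3, 4, 5 and 3 of the 10 fibroblast markers were above 100 normalised counts. So were 4, 4, 3 and 4 of 9 neutrophil markers, and in every group 2 of 7 lymphoid and 0 of 6 dendritic cell markers. The part of such other cells in the results was not tested.

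The genes lie apart in the genome except for Casp1 (chr9:5298517-5307265, plus strand, mm10, GENCODE M21) and Casp4 (chr9:5308828-5336783, plus strand), which are neighbours 1562 bases apart with 0 annotated genes between them. Promoter windows of the RefSeq annotation (GRCm38.p6) were matched by symbol for 8 of the 10 genes, with 11 windows. No window was matched for Gsdmd or Zbp1. Both strands were searched for an ISRE-like motif (GAAA, then any 2 bases, then GAAA), a GAS-like motif (TTCNNNGAA) and the NF-κB consensus. The ISRE-like motif was found in 3.44% of 32851 windows of all genes, the GAS-like motif in 8.3% and the NF-κB consensus in 4.51%. Of the 11 windows, 1 held the ISRE-like and 1 the GAS-like motif, both in the same window of Ripk1. The NF-κB consensus was in 3 windows, 2 of Casp4 and 1 of Nlrp3. The 2 Casp4 windows overlap and hold the same match. By gene, 2 of the 8 held the NF-κB consensus, where 5.14% of all genes did. Shown are 1 window each of Casp4, Ripk1 and Nlrp3, for holding a match and for the course of the gene. These courses were the largest CMA response, a response not seen with C-178, and a level below rest with both compounds. Capitals mark the matches, and all 3 genes are on the plus strand.
Casp4, chr9:5308599-5308898: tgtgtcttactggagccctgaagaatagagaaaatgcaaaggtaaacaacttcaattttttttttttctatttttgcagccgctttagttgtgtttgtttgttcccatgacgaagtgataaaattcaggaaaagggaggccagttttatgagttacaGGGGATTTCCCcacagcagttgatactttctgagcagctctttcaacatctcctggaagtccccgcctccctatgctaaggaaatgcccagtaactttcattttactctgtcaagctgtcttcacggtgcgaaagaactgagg
Ripk1, chr13:34002624-34002923: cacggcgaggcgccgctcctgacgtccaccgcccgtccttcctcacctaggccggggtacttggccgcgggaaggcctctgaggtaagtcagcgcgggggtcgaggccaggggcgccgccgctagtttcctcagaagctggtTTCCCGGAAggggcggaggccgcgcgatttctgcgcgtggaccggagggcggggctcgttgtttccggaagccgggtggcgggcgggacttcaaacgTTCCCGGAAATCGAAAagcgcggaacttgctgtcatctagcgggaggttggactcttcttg
Nlrp3, chr11:59541319-59541618: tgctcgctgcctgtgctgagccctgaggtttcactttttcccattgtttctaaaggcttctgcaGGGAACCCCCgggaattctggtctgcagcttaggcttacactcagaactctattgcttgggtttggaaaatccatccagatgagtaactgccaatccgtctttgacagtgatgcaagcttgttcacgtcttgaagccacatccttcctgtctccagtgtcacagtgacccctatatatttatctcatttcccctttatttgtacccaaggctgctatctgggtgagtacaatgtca
In the Casp4 window the NF-κB consensus matched at positions -93 and -92 from the start site, overlapping, the latter on both strands. In the Ripk1 window the GAS-like motif matched at -108 and at -11, and the latter overlaps the ISRE-like match that begins at -5. The match in Nlrp3 begins at -186. Ripk1 and Nlrp3 each have another window, chr13:34002113-34002412 and chr11:59542436-59542735, and neither held a match. For Ripk1 the window without a match is the one at the annotated gene start. A match of letters is a description of the window and not a site shown to be used.

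CMA against no stimulation asks what the agonist did on its own. Of the 10 genes, 7 rose (Zbp1, Casp1, Casp4, Casp8, Ripk1, Ripk3 and Mlkl), Pycard fell, and Nlrp3 and Gsdmd were not called. Over all tested genes 19.4% rose and 17.9% fell. The median log2 change was 1.28 over the 10 genes and -0.01 over all genes tested. Since the genes were chosen with earlier results of these data known, this contrast is a description only. In bulk RNA, fewer cells of a type and less RNA per cell cannot be told apart. By role, the rises covered the necroptosis sensor Zbp1, both kinases and the executioner Mlkl, and all 3 caspases. No rise was called for the inflammasome sensor Nlrp3, its adaptor gene or the pore former gene.

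**Figure D1:**
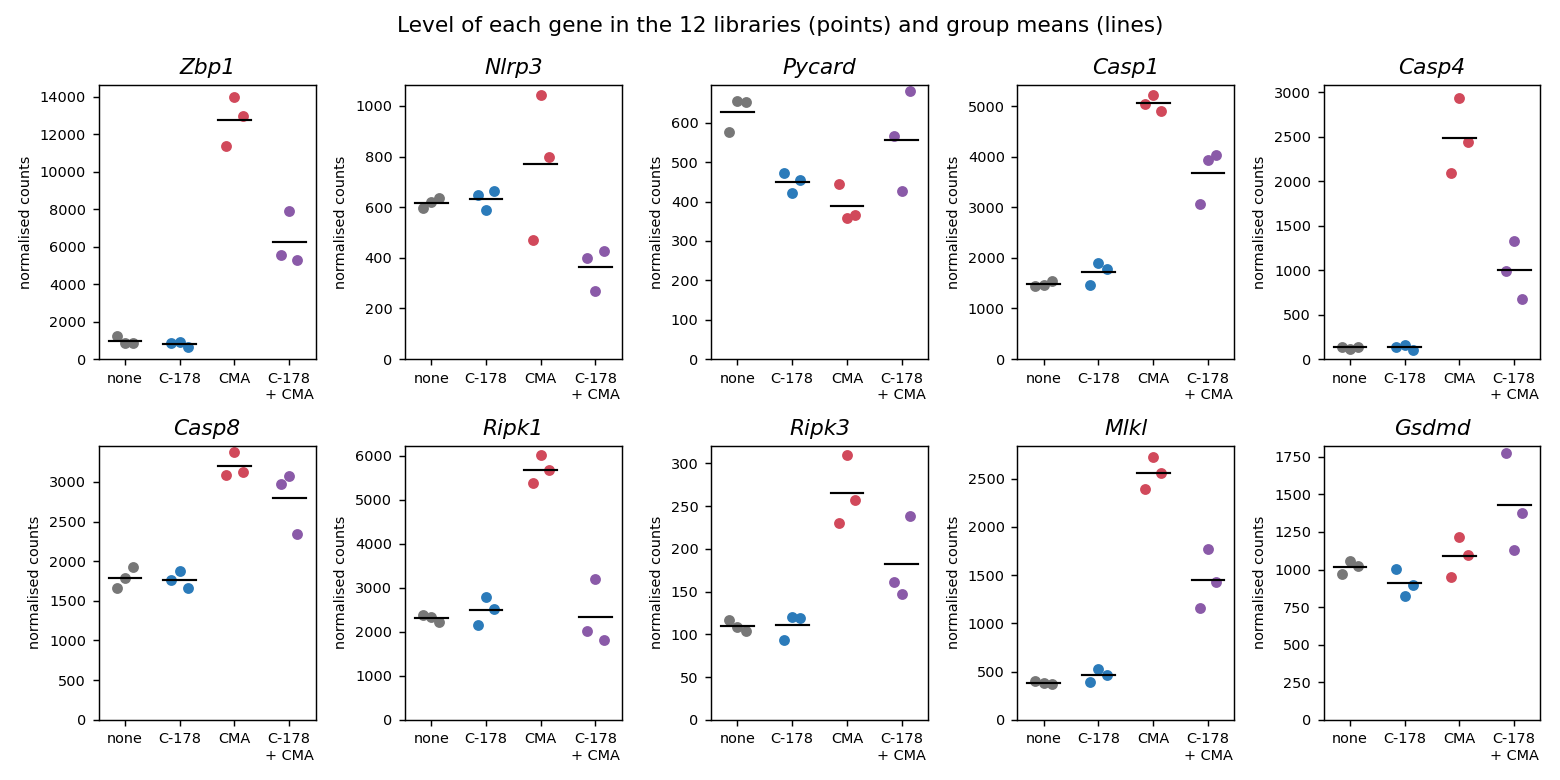
Normalised counts (vertical axes, each from 0) of the 10 genes in the 12 libraries by group (horizontal axis: none, C-178, CMA, C-178 + CMA); points are libraries and lines are group means. The CMA points of Zbp1, Casp1, Casp4, Casp8, Ripk1, Ripk3 and Mlkl lie above all points without CMA, and of the Ripk1 points with both compounds 2 lie below and 1 above the points without CMA, all under the CMA points.

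Zbp1 (chr2:173206612-173218923, minus strand), which encodes a sensor of Z-form nucleic acids that engages RIPK3, read 1212, 836 and 866 in unstimulated libraries 1, a and b and 861, 923 and 626 with C-178. With CMA it read 11379, 13962 and 12989.9, and with both compounds 5564, 7909 and 5289.8. The 2 groups without CMA overlapped, and the other two stood clear of them and of each other. CMA raised Zbp1 13.2-fold, from 971.3 ± 208.8 to 12777 ± 1305 (SD, n = 3; log2 change 3.73 ± 0.19, adjusted p = 4.91e-09). With both compounds it was 2.04-fold lower than with CMA, at 6254 ± 1440 (-1.05 ± 0.19, adjusted p = 0.0026), and still 7.79-fold higher than with C-178 alone (2.96 ± 0.19, adjusted p = 1.04e-07). The level with both compounds thus lay between rest and CMA. On the log2 scale the CMA response with C-178 minus that without was -0.78 ± 0.28 and was not called (adjusted p = 0.0812). Without library 2 of the group with both compounds, the highest of the 3, it was -0.96 and called (adjusted p = 0.0131; 0.0131 to 0.199 over all alternatives).

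Nlrp3 (chr11:59541568-59566956, plus strand) encodes the sensor of the best studied inflammasome, whose transcript is known as a target of NF-κB in macrophages. It read 598, 619.8 and 638 without stimulation and 646, 590.2 and 664 with C-178. With CMA the libraries were far apart, at 469.7, 1044 and 797: the first lay below every unstimulated library and the others above. With both compounds Nlrp3 read 397, 268 and 428, below every library of every other group. CMA alone gave a log2 change of 0.24 ± 0.24 (adjusted p = 0.463; 95% interval -0.27 to 0.76), which was not called, and without CMA library 1 it was 0.56 and called (adjusted p = 0.0413; 0.0289 to 0.971 over all alternatives). Adding C-178 to CMA lowered Nlrp3 2.11-fold, from 770.1 ± 288.1 to 364.5 ± 84.58 (SD, n = 3; -1.03 ± 0.24, adjusted p = 0.00888). With both compounds it was also 1.74-fold lower than with C-178 alone (-0.82 ± 0.24, adjusted p = 0.0221) and 1.7-fold lower than at rest (-0.79 ± 0.24, adjusted p = 0.0302). The call against C-178 was lost without C-178 library 1 or 3 or library 2 of the group with both compounds (adjusted p 0.0539 to 0.0687; 0.00384 to 0.0687 over all alternatives), and the call against rest without any 1 of the unstimulated libraries or that same library 2 (adjusted p 0.0735 to 0.0899; 0.00594 to 0.0899 over all alternatives). The difference between its CMA responses with and without C-178 was -1.06 ± 0.34 (adjusted p = 0.0603), not called by limma, and was called by edgeR (-1.08, adjusted p = 0.0492) and DESeq2 (-1.12, adjusted p = 0.0153) on recovered reads. It was also called without CMA library 1 (-1.38, adjusted p = 0.0107) or without library 3 of the group with both compounds (-1.19, adjusted p = 0.0412; 0.00622 to 0.142 over all alternatives).

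Pycard (chr7:127989708-127993867, minus strand), the gene of the adaptor ASC, was the gene that fell with CMA. It read 576, 655 and 652 without stimulation, 472, 422 and 455 with C-178, 443, 357 and 365 with CMA and 567, 426 and 679.9 with both compounds. The unstimulated libraries lay above all those with C-178 or CMA alone, while the group with both compounds spanned much of the whole range. CMA lowered Pycard 1.62-fold, from 627.9 ± 44.72 to 388.6 ± 47.57 (SD, n = 3; log2 change -0.70 ± 0.16, adjusted p = 0.00362). With both compounds it was higher than with CMA (0.50 ± 0.16, adjusted p = 0.0389), a call lost when any of 8 libraries was left out: the 3 unstimulated ones, C-178 library 3, CMA libraries 2 and 3, and libraries 1 and 3 with both compounds (log2 change 0.34 to 0.50, adjusted p 0.052 to 0.135; 0.00218 to 0.153 over all alternatives). With the library number as a block over the 9 treated libraries its adjusted p was 0.0501. Against C-178 alone the change with both was 0.29 ± 0.16 and not called (adjusted p = 0.209), and it was 0.47 and called without library 2 of the group with both compounds (adjusted p = 0.0194; 0.0194 to 0.549 over all alternatives). Its CMA responses with and without C-178 differed by 0.98 ± 0.23 (adjusted p = 0.0201). That call was lost without unstimulated library a or b, C-178 library 2, or CMA library 2 or 3 (0.92 to 0.95, adjusted p 0.0517 to 0.0652; 0.0011 to 0.0652 over all alternatives). Exons of Pycard overlap Gm45205, annotated on the opposite strand, and since no source used here gives the strand setting of the counting, reads from both cannot be told apart.

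Casp1, the gene of the caspase that matures interleukin-1β and interleukin-18, was among the more abundant of the 10 at rest. It read 1446, 1471 and 1552 without stimulation and 1465, 1902 and 1786 with C-178. With CMA it read 5037, 5232 and 4912, and with both compounds 3069, 3928 and 4028. The resting and C-178 libraries overlapped, and the group with both compounds lay between them and CMA with no overlap on either side. CMA raised Casp1 3.4-fold, from 1490 ± 55.47 to 5060 ± 161.5 (SD, n = 3; log2 change 1.76 ± 0.13, adjusted p = 1.64e-07). With C-178 present the rise was 2.14-fold, to 3675 ± 527 (1.10 ± 0.13, adjusted p = 3.57e-05). The level with both was 1.38-fold lower than with CMA (-0.47 ± 0.13, adjusted p = 0.0216), a call lost without CMA library 2 or 3 or library 1 of the group with both compounds (-0.49 to -0.35, adjusted p 0.0583 to 0.0791; 0.00644 to 0.158 over all alternatives). The difference between its CMA responses was -0.67 ± 0.19 (adjusted p = 0.0398). It was lost without any unstimulated library, any CMA library, C-178 library 2 or 3, or library 1 with both compounds (-0.70 to -0.54, adjusted p 0.0618 to 0.112; 0.00244 to 0.126 over all alternatives).

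Casp4, its neighbour, had the largest relative response of the 10. The gene read 137, 114 and 139.8 without stimulation and 129.8, 157 and 103 with C-178, the lowest level per exon length among the 10 genes in both groups. With CMA it read 2089.9, 2943 and 2443, and with both compounds 991, 1332 and 674. Every CMA library was above every library with both compounds, and all 6 of these were above all 6 without CMA. CMA raised Casp4 19.1-fold, from 130.2 ± 14.1 to 2492 ± 428.5 (SD, n = 3; log2 change 4.24 ± 0.23, adjusted p = 6.21e-09), and with C-178 present the rise was 7.69-fold, to 999.1 ± 329.3 (2.90 ± 0.23, adjusted p = 5.85e-07). With both compounds it was 2.49-fold lower than with CMA (-1.36 ± 0.23, adjusted p = 0.00137). The responses differed by -1.34 ± 0.32 (adjusted p = 0.023), a call lost without unstimulated library a, C-178 library 2, or CMA library 2 or 3 (-1.35 to -1.19, adjusted p 0.0578 to 0.0739; 0.00212 to 0.0739 over all alternatives).

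Casp8 (chr1:58795374-58847503, plus strand), the initiator caspase of death receptors and the brake on necroptosis, had the smallest of the called rises. It read 1659, 1792 and 1927 without stimulation, 1758, 1874 and 1665 with C-178, 3089, 3371 and 3129.5 with CMA and 2975, 3079 and 2347 with both compounds. All 6 libraries with CMA were above all 6 without, and the group with both compounds lay just below CMA, without overlap. CMA raised Casp8 1.78-fold, from 1793 ± 134.2 to 3196 ± 152.6 (SD, n = 3; log2 change 0.84 ± 0.12, adjusted p = 0.000104), and with C-178 present the rise was 1.59-fold, to 2800 ± 396 (0.66 ± 0.12, adjusted p = 0.00154). Between both compounds and CMA the change was -0.20 ± 0.12 and not called (adjusted p = 0.244; 95% interval -0.47 to 0.07). The difference between the responses was -0.18 ± 0.18, with an interval of -0.56 to 0.20 (adjusted p = 0.493). This does not show that the responses were alike.

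Ripk1 (chr13:34002363-34037147, plus strand) is the kinase gene at the branch between survival signalling, apoptosis and necroptosis. Of the genes that rose with CMA, only Ripk1 had no called rise with C-178. It read 2379.5, 2336 and 2229 without stimulation and 2165, 2798 and 2508 with C-178. With CMA it read 5371, 6019.8 and 5674, and with both compounds 2014, 3209.9 and 1808. The CMA libraries stood above all 9 others, and the libraries with both compounds lay on either side of the resting ones. CMA raised Ripk1 2.46-fold, from 2315 ± 77.47 to 5688 ± 324.5 (SD, n = 3; log2 change 1.30 ± 0.18, adjusted p = 5.52e-05), and with both compounds it was 2.43-fold lower, at 2344 ± 757.1 (-1.32 ± 0.18, adjusted p = 0.000318). Against rest the change with both compounds was -0.03 ± 0.18 (adjusted p = 0.932; 95% interval -0.41 to 0.36), and against C-178 alone -0.13 ± 0.18 (adjusted p = 0.632; -0.51 to 0.26). The latter became -0.38 and was called without library 2 of the group with both compounds (adjusted p = 0.0318; 0.0318 to 0.921 over all alternatives). The responses differed by -1.42 ± 0.25 (adjusted p = 0.00563), a call kept under all 22 alternatives (4.07e-05 to 0.0245). Exons of Ripk1 overlap those of Serpinb6a on the opposite strand and of the pseudogene Gm17084 on the same strand. Serpinb6a stood at 4774 ± 58.09 without stimulation and 3941 ± 438 with CMA and was not called (-0.28 ± 0.14, adjusted p = 0.138).

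Ripk3 (chr14:55784995-55788865, minus strand), the gene of the kinase that activates MLKL, rose with CMA both without and with C-178. It read 117, 108 and 104 without stimulation and 93.6, 120.5 and 119 with C-178. With CMA it read 231, 309.9 and 257, and with both compounds 161, 147 and 238. All 6 libraries with CMA were above all 6 without, and library 3 with both compounds was above the lowest CMA library, so those groups overlapped. CMA raised Ripk3 2.42-fold, from 109.8 ± 6.523 to 265.9 ± 40.31 (SD, n = 3; log2 change 1.26 ± 0.19, adjusted p = 0.00014). With C-178 present it rose 1.64-fold, to 182.2 ± 49.15 (0.69 ± 0.19, adjusted p = 0.0186), a call lost without C-178 library 1 or library 3 with both compounds (0.48 to 0.57, adjusted p 0.0502 to 0.0704; 0.00433 to 0.102 over all alternatives). Its fall against CMA was close to the threshold (-0.56 ± 0.19, adjusted p = 0.0482) and was held by 9 of 24 alternatives (0.00693 to 0.179). It was lost without any unstimulated library, C-178 library 2 or 3, CMA library 2 or 3, or library 1 or 2 with both compounds (-0.58 to -0.43, adjusted p 0.0555 to 0.179), and with the library number as a block (adjusted p = 0.0664). The difference between its CMA responses was -0.57 ± 0.27 and not called (adjusted p = 0.169). Without library 3 of the group with both compounds, the highest of the 3, it was -0.78 and called (adjusted p = 0.0435; 0.0262 to 0.327 over all alternatives).

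Mlkl (chr8:111311797-111338177, minus strand), the gene of the necroptosis executioner, had a larger log2 change with CMA than the kinase genes upstream of it. It read 407, 377 and 375 without stimulation and 390.1, 530.0 and 465 with C-178. With CMA it read 2393, 2726 and 2555, and with both compounds 1156, 1771 and 1424. The groups with CMA and with both compounds were clear of each other and of the rest. CMA raised Mlkl 6.62-fold, from 386.4 ± 17.61 to 2558 ± 166.3 (SD, n = 3; log2 change 2.72 ± 0.16, adjusted p = 1.16e-08), and with C-178 present the rise was 3.14-fold, to 1450 ± 308.4 (1.64 ± 0.16, adjusted p = 3.96e-06). With both compounds it was 1.76-fold lower than with CMA (-0.84 ± 0.16, adjusted p = 0.00264). The responses differed by -1.08 ± 0.22 (adjusted p = 0.0114), a call kept under all 22 alternatives (0.000269 to 0.0427).

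Gsdmd (chr15:75862327-75867408, plus strand), the gene of the pyroptosis pore former, was not called with CMA alone and rose with CMA in the presence of C-178. It read 971, 1055 and 1024 without stimulation, 1003, 822 and 899 with C-178, 949, 1219.7 and 1099.5 with CMA and 1777, 1128 and 1378 with both compounds. Library 1 with both compounds was the highest of the 12 and library 2 of that group lay within the CMA range. The CMA change was 0.09 ± 0.16 (adjusted p = 0.683; 95% interval -0.25 to 0.43), from 1017 ± 42.62 to 1090 ± 135.5 (SD, n = 3). With both compounds Gsdmd was at 1428 ± 327.2, 1.57-fold higher than with C-178 alone (0.63 ± 0.16, adjusted p = 0.00994), a call lost when only these 2 groups were fitted (adjusted p = 0.0747; 0.00125 to 0.0747 over all alternatives). Against rest it was 0.47 ± 0.16, just short of the threshold (adjusted p = 0.0511), and was called under 6 of 23 alternatives. It was called by edgeR (adjusted p = 0.0372) and DESeq2 (adjusted p = 0.0214) on recovered reads. It was also called by limma on reads thinned to the shallowest library (adjusted p = 0.0388). Against CMA it was 0.37 ± 0.16 (adjusted p = 0.0982), and the difference between the CMA responses was 0.54 ± 0.22 (adjusted p = 0.123), neither called. Without library 2 of the group with both compounds, the lowest of the 3, the change was 0.62 against rest (adjusted p = 0.00658; 0.00658 to 0.166 over all alternatives), 0.53 against CMA (adjusted p = 0.0119; 0.0119 to 0.318) and 0.70 for the difference (adjusted p = 0.0178; 0.0176 to 0.261), each called.

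The effect of the inhibitor on these transcripts in resting cells was read from C-178 against no stimulation. None of the 10 genes was called by limma, edgeR or DESeq2, with 1 at an unadjusted p under 0.05 in limma. Over all tested genes 0.0962% rose and 0% fell. That gene was Pycard, whose libraries with C-178 lay below the unstimulated ones without overlap (-0.48 ± 0.16, adjusted p = 1; 95% interval -0.83 to -0.13). Casp1 (0.20 ± 0.13) and Mlkl (0.25 ± 0.16) had the largest positive values, and Zbp1 was at -0.27 ± 0.19. A fit with a weight for each library, which called 1849 of the 11440 genes against 11 in the unweighted fit, called these 4 genes, Casp1 at 0.25 and Mlkl at 0.28 up, Pycard at -0.51 and Zbp1 at -0.38 down (adjusted p 0.0163, 0.0166, 0.000472 and 0.0301). In the unweighted fit the 95% intervals of all genes but Pycard held 0. They were -0.09 to 0.48 for Casp1, -0.09 to 0.58 for Mlkl and -0.69 to 0.15 for Zbp1. The log2 changes of the other 6 genes lay between -0.17 for Gsdmd and 0.10 for Ripk1.

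How much lower the levels were when the inhibitor accompanied the agonist was read from C-178 plus CMA against CMA. Of the 10 genes, 7 were lower (Zbp1, Nlrp3, Casp1, Casp4, Ripk1, Ripk3 and Mlkl) and Pycard was higher, with Casp8 and Gsdmd not called. Over all tested genes 10.6% were higher and 13.5% lower. The median over the 10 genes was -0.70, against 0.00 over all genes. Falls of Ripk1, Casp4, Zbp1 and Mlkl were called under all 24 alternatives, and the falls of Nlrp3, Casp1 and Ripk3 under 23, 19 and 9 of them. Only 4 of the 10 genes were called when the fit held these 2 groups alone.

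C-178 plus CMA against C-178 gives the agonist response in the presence of the inhibitor. It was called up for 7 genes (Zbp1, Casp1, Casp4, Casp8, Ripk3, Mlkl and Gsdmd) and down for Nlrp3, with Pycard and Ripk1 not called. Over all tested genes 13.5% were higher and 12.6% lower, and the medians were 0.67 over the 10 genes and 0.01 over all. Compared with rest, 6 genes were higher with both compounds (Zbp1, Casp1, Casp4, Casp8, Ripk3 and Mlkl) and Nlrp3 was lower, where 11.1% of all tested genes were higher and 10.5% lower. The medians were 0.66 and 0.00. The call for Ripk3 against rest (0.69 ± 0.19, adjusted p = 0.0193) was lost without unstimulated library a or b (0.66 to 0.68, adjusted p 0.0654 to 0.0697; 0.00386 to 0.0702 over all alternatives). These comparisons share libraries with those above and are not independent of them.

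The difference between the CMA response with C-178 and without it was tested as an interaction. It was negative and called for Casp1, Casp4, Ripk1 and Mlkl, positive and called for Pycard, and not called for the other 5, where 3.95% of all tested genes were called positive and 5.99% negative. The median was -0.72 over the 10 genes and 0.01 over all. By fold, the response went from 19.1 without to 7.69 with C-178 for Casp4, from 6.62 to 3.14 for Mlkl, and from 2.46 to 0.941 for Ripk1. Calls for Ripk1 and Mlkl did not depend on any single library, unlike those for Casp1, Casp4 and Pycard.

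**Figure D2:**
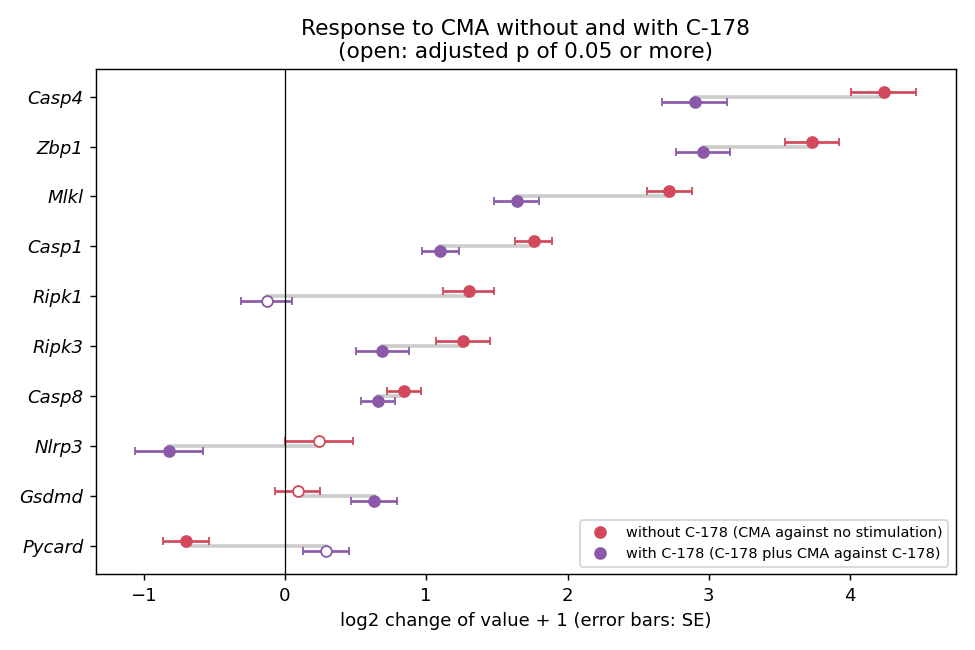
Log2 change of value + 1 (horizontal axis) of each gene (vertical axis) for CMA without C-178 (against no stimulation) and with it (against C-178 alone); bars are SE from the limma fit and open points have an adjusted p of 0.05 or more. Ripk1 moves from 1.30 to -0.13, Casp8 from 0.84 to 0.66, and Pycard and Gsdmd lie further right with C-178 than without.

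Levels of different genes were compared per length, as normalised counts per kb of annotated exon. The length was the union of all annotated exons of a gene, which can exceed that of the transcript the cells made. It was 3800 bases for Pycard, whose gene spans chr7:127989708-127993867, 8344 for Ripk1 and 3710 for Casp4. The order of the genes below depends on these lengths, and other lengths were not tested. Changes of a gene between groups do not depend on them. At rest Casp1 was highest, at 995 ± 37.1 (SD, n = 3), followed by Casp8 at 620 ± 46.4 and Gsdmd at 428 ± 17.9. The upstream kinase gene Ripk1 (277 ± 9.28) and Zbp1 (275 ± 59.2) did not differ beyond their spread. Mlkl (168 ± 7.64), Pycard (165 ± 11.8) and Nlrp3 (152 ± 4.97) came next and were likewise close. Ripk3 (47.9 ± 2.85) and Casp4 (35.1 ± 3.8) were the lowest. With C-178 alone the order was that at rest, except that Nlrp3 (156 ± 9.49) stood above Pycard (118 ± 6.73). With CMA the order changed: Zbp1 (3621 ± 370) and Casp1 (3380 ± 108) led and overlapped within their spread, and Mlkl (1111 ± 72.2) and Casp8 (1105 ± 52.8) followed at like levels. Casp4, last at rest, reached 672 ± 116, close to Ripk1 at 682 ± 38.9, while Ripk3 (116 ± 17.6) and Pycard (102 ± 12.5) were lowest. The executioner gene Mlkl thus passed Gsdmd (458 ± 57), which had been above it at rest. With both compounds Casp1 (2455 ± 352) had the highest mean, with a spread that overlapped that of Zbp1 (1772 ± 408), and Mlkl (630 ± 134) and Gsdmd (601 ± 138) stood within their spread of each other.

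**Figure D3:**
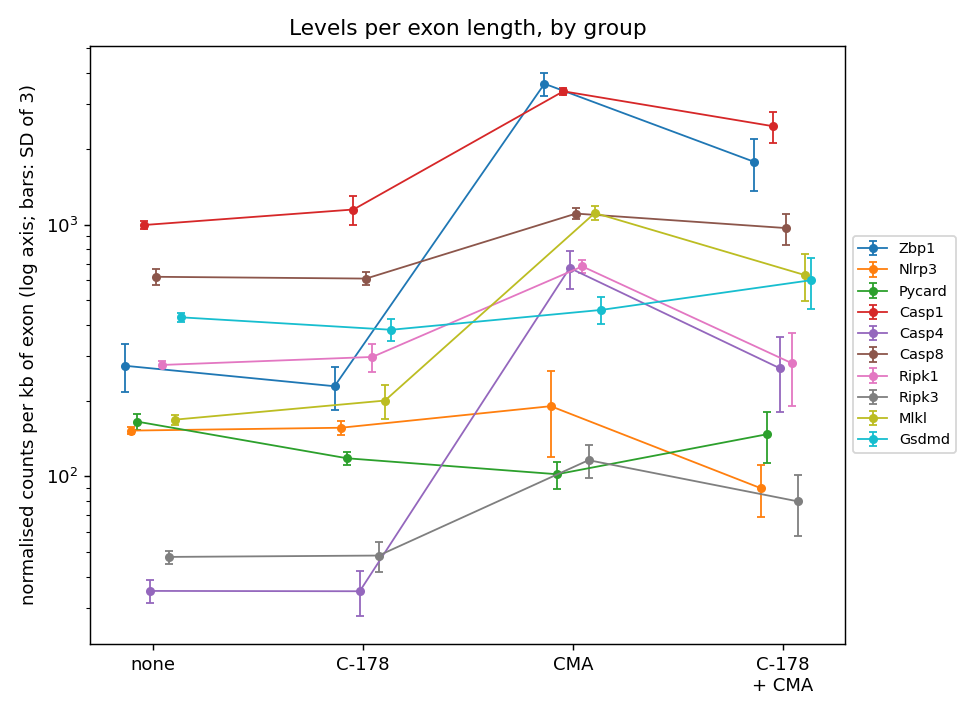
Mean normalised counts per kb of exon (vertical log axis) in the 4 groups (horizontal axis) for each gene; bars are the SD of 3 libraries and lines join the means of a gene. Casp4 climbs from 35.1 at rest to 672 with CMA, and Pycard goes from 165 to 102.

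Replicates differed in tightness. The median coefficient of variation over the 10 genes was 5.25% at rest, 12.9% with C-178, 11.2% with CMA and 22.9% with both compounds. Within the last group, library 2 was the highest of the 3 for Casp4, Casp8, Mlkl, Ripk1 and Zbp1 and the lowest for Nlrp3, Pycard, Gsdmd and Ripk3. For Casp1, Nlrp3, Pycard and Ripk3 the highest was library 3, and for Gsdmd library 1. The limma fit uses 1 spread per gene for all groups, although these spreads differ.

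For each gene the tested gene outside the 10 with the most similar course was taken by Pearson's r of log2 values over the 12 libraries. The r are descriptions, since the libraries share the treatments. Casp4 was closest to Zufsp (r = 0.999), which went from 271.8 normalised counts at rest to 3688 with CMA and 1621 with both compounds. Zbp1 was closest to Pydc3 (0.996), a gene of the pyrin domain family, and Mlkl to Ifi204 (0.994), an interferon-inducible gene of the p200 family that reached 32253 with CMA. Casp8 paired with P4ha1 (0.992), Ripk1 with Dock11 (0.991) and Casp1 with the aminopeptidase gene Lap3 (0.99). Dock11 stood at 1094 at rest, 2149 with CMA and 1021 with both compounds. Gsdmd paired with Stard3nl (0.972) and Ripk3 with Syf2 (0.971). Pycard paired with the creatine kinase gene Ckb (0.952), at 7292 at rest, 4668 with CMA and 6293 with both compounds. Nlrp3 was the loosest, with Zfp97 (0.913) at group means of 12.15 to 18.97.

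Partner genes of the same pathways were taken from 8 lists, written with earlier results of these data known and described by counts. Of 8 GTPase genes listed as linked to lipopolysaccharide sensing by caspase-11, all 8 rose with CMA (median 4.81), as Casp4 did. The list does not separate genes that promote this sensing from genes that restrain it. They included Gbp5 (from 134 to 32981 normalised counts, log2 change 7.93), Gbp2 (5.93), Gbp3 (5.12) and Gm12250, which encodes Irgb10 (4.49), and 6 of the 8 were lower with both compounds than with CMA, where 13.5% of all tested genes were lower. Of 17 tested genes of inflammasome sensors and proteins linked to them, 6 rose and 2 fell (median 0.25). Among them Nlrc5 (3.82), the DNA sensor gene Aim2 (2.39) and the pyrin gene Mefv (0.85) rose. The ATP receptor gene P2rx7 (-0.53) fell. Among 5 tested substrates and release factors, Il1a (3.39), Il18 (1.57) and Il1b (0.82) rose. With both compounds Il1b was lower than with C-178 alone (-0.48, adjusted p = 0.0381), the direction Nlrp3 took, while Il18 was higher (1.18, adjusted p = 0.000107), the direction Casp1 took. Of 7 other caspase and serpin genes described (median 0.06), Casp12 (4.57, from 3.473 to 106) and Casp2 (0.96) rose and Casp9, the mitochondrial initiator caspase gene, fell (-0.82).

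Around RIPK1 and caspase-8, 10 of 21 genes of the death receptor complex and its brakes rose with CMA and 3 fell (median 0.32). Tnfaip3, the gene of the ubiquitin editor A20, rose by 4.16, Cflar, which encodes the caspase-8 regulator cFLIP, by 2.76, the death receptor gene Fas by 2.32, and Birc3, which encodes a ubiquitin ligase of RIPK1, by 1.98. Like Ripk1, these 4 were lower with both compounds than with CMA (-3.35, -1.79, -1.98 and -1.75). Against C-178 alone, Fas (-0.33, adjusted p = 0.258) and Birc3 (0.37, adjusted p = 0.065) were not called in the limma fit. Unlike Ripk1, Tnfaip3 (0.83, adjusted p = 0.0123) and Cflar (0.91, adjusted p = 0.00465) were called up there. Among 8 necroptosis partners 6 rose and 0 fell (median 0.72), with Tlr3 (3.02), Ripk2 (2.93), Adar (2.23), whose product edits the double-stranded RNA that ZBP1 can bind, and the membrane repair gene Chmp4b (0.81). Of 9 genes of mitochondrial apoptosis 4 rose and 1 fell (median 0.55), with Apaf1 (1.34), Pmaip1 (0.72) and Bid (0.68) up and Bcl2l11 down (-1.39). Of 8 transcription factor genes known from promoters of this kind 7 rose (median 1.41), with Irf1 (3.82), Stat2 (2.34), Irf2 (1.99) and Irf9 (1.21). Over all tested genes the shares with CMA were the 19.4% up and 17.9% down given above.

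**Figure D4:**
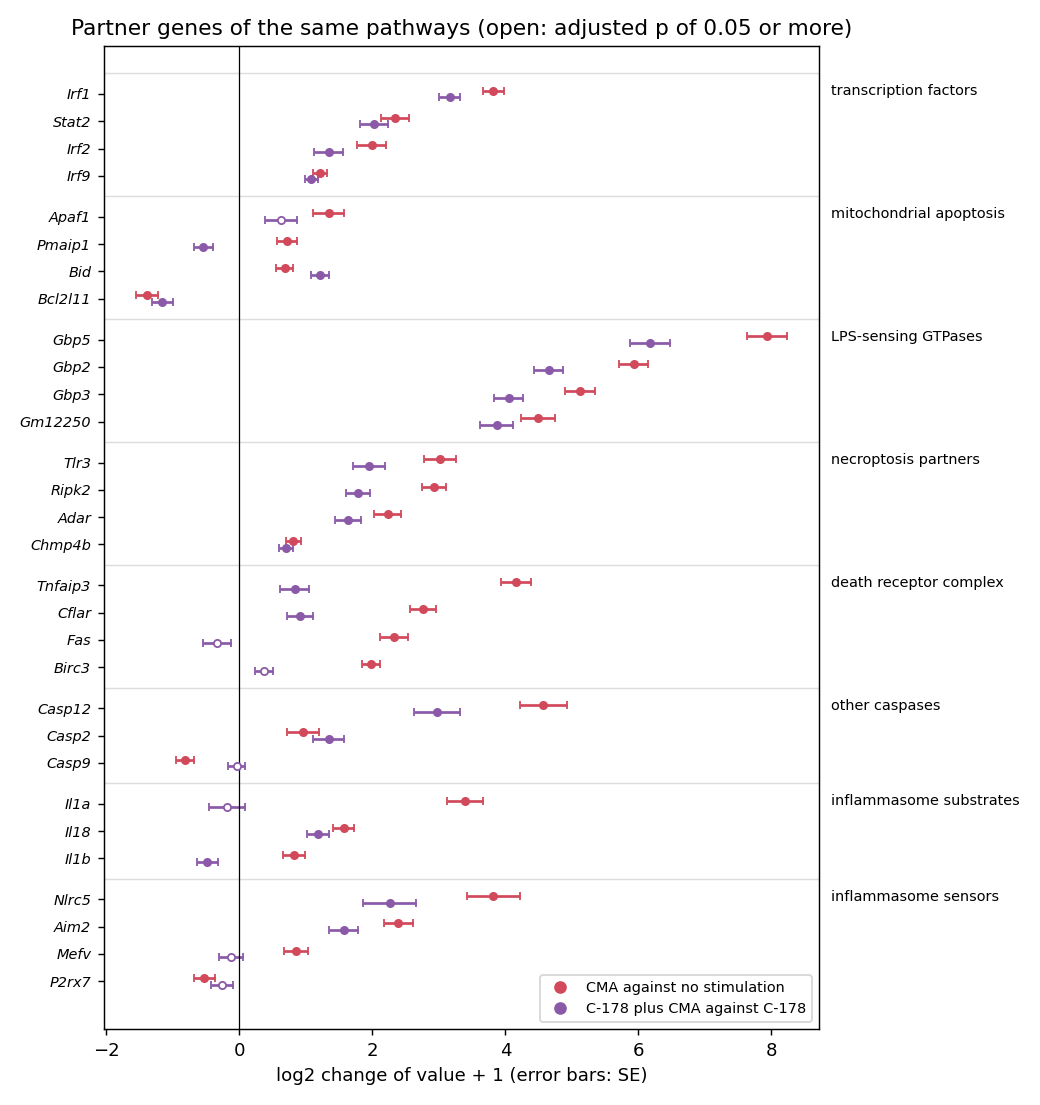
Log2 change of value + 1 (horizontal axis) of up to 4 called genes of each partner list (vertical axis) for CMA without C-178 (against no stimulation) and with it (against C-178 alone); bars are SE and open points have an adjusted p of 0.05 or more. Gbp5 lies furthest right at 7.93, and Apaf1, Fas, Birc3, Casp9, Il1a, Mefv and P2rx7 are open with C-178.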

How the data were processed

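The deposited table holds a normalised signal per gene and library. Per the submitters' processing notes, mm10, Bowtie2 2.2.1 and limma 3.18.13 were used. No source used here gives the counting tool, annotation or strand setting. Per the labels the kit was stranded TruSeq mRNA. Division by size factors is inferred from the column headings. Whole reads were recovered for 100% of values (tolerance 0.01), and the 12 Cook's distance columns were left out.

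Genes above 10 normalised counts in at least 3 libraries were fitted on log2(value + 1) with limma 3.58.1 (R 4.3.3, trended eBayes) over 12 libraries, with Benjamini-Hochberg adjustment. edgeR 4.0.16 (4282 genes called with CMA) and DESeq2 1.42.0 were run on the recovered reads as alternatives. Of the code, only the limma steps for CMA against no stimulation were tested on simulated counts. Tables and figures were made in Python 3.11.15 with matplotlib 3.10.9, numpy 2.4.6 and pandas 2.3.3.

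Between the groups with C-178, residuals of libraries with the same number had correlations of 0.45, 0.43 and 0.26. Each was over 0.1, the value set beforehand for pairing by number. Library 1 was the deepest in both groups, so pairing and shared depth cannot be told apart. For CMA and C-178 plus CMA the correlations were -0.14, 0.18 and -0.16, and for C-178 and CMA -0.04, 0.06 and -0.08. The values given come from the fit without a block; the blocked fit is an alternative and was not run for the interaction.

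Named were the 10 members, the most similar gene of each, and up to 4 called genes of each list with the smallest adjusted p with CMA. Members and lists were chosen with earlier results of these data known. A gene of these lists is not reported here and was left out of its list's counts.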

Additional observations from a re-analysis of the deposited data

Results flagged for a closer look

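For 5 of the 10 genes the log2 response to CMA with C-178 minus the response without it differed from 0 in the limma interaction test, where 3.95% of all tested genes were called positive and 5.99% negative. It was -1.42 for Ripk1, -1.34 for Casp4, -1.08 for Mlkl, -0.67 for Casp1 and 0.98 for Pycard. Ripk1, Casp4, Mlkl and Casp1 rose less with CMA when C-178 was present, and for Ripk1 no rise was called then. Pycard fell with CMA alone and had a change of 0.29 ± 0.16 with CMA in the presence of C-178, which was not called. Leaving out single libraries ended the calls for Casp1 (any of 9 libraries), Casp4 (any of 4) and Pycard (any of 5), and not those for Ripk1 and Mlkl.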

How the results depend on the processing

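Under 25 alternative settings, 1285 of 1400 values of the 10 genes kept their direction and side of the threshold, 69 lost a call, 25 gained one and 21 changed sign, 0 of these among called values. With only the 2 groups compared, 31 genes were called for C-178 against no stimulation, 854 for C-178 plus CMA against CMA (4 of the 10), 1338 against C-178 and 1531 against no stimulation. Array weights called 7380 genes for CMA against no stimulation, 1849 (4 of the 10) for C-178 against no stimulation and 3111 (8 of the 10) for the interaction. Quantile normalisation called 18 and DESeq2 38 for C-178, and DESeq2 1760 for the interaction. Leaving out a library gave 4 to 29 genes for C-178 against no stimulation, 1344 to 4711 (5 to 8 of the 10) for C-178 plus CMA against CMA, 1941 to 4181 against C-178, and 343 to 3699 (2 to 7 of the 10) for the interaction. As paired data with the replicate block over 9 treated libraries, 6 of the 10 genes (2380 of all) were called for both compounds against CMA and 8 (2601) against C-178, and the block over the 6 libraries with C-178, chosen after seeing the data, gave 8 (3023). It changed no call beyond Pycard and Ripk3.

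Sign changes were small. In CMA against no stimulation, Gsdmd was at -0.09 with quantile normalisation and Nlrp3 at -0.01 to 0.56 without a library. In C-178 against no stimulation, Casp4 was at 0.02 with quantile normalisation, Nlrp3 at -0.002 on thinned reads, and Ripk3 at -0.01 by edgeR and -0.01 by DESeq2. Without a library Casp4 was at -0.16 to 0.14, Casp8 at -0.08 to 0.03, Nlrp3 at -0.0014 to 0.08 and Ripk3 at -0.05 to 0.13. Ripk1 with both compounds was at -0.38 to 0.04 against C-178 and -0.28 to 0.14 against no stimulation without a library, and at 0.02 against no stimulation by edgeR and 0.02 by DESeq2. The causes were not tested. With reads thinned to the shallowest library, calls were lost for Ripk3 against CMA and against no stimulation (adjusted p = 0.102 and 0.0507, limma) and for Pycard against CMA (0.0803), all with both compounds. On the same reads a call was gained for Gsdmd with both compounds against no stimulation (0.49, adjusted p = 0.0388, limma).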
